A study of Mus musculus and Sus scrofa with 12 samples.

Results

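The regions described here are stretches of pig forelimb chromatin that carried H3K4me1 and neither H3K27ac nor H3K4me3, away from promoters. They were chosen by the marks themselves. A deposited pig H3K4me1 peak was taken when it overlapped no pig H3K27ac peak and no pig H3K4me3 peak by 1 bp or more and lay over 1 kb from every transcription start site (TSS) of the RefSeq annotation of Sscrofa11.1. This left 72238 regions of 103373 pig H3K4me1 peaks, or 69.9% (95% Wilson interval 69.6 to 70.2), and of 258842 peaks over the 6 deposited lists. The study profiled H3K4me1, H3K27ac and H3K4me3 by ChIPmentation, in which a transposase adds sequencing adapters to chromatin bound by the antibody. The tissue was the forelimb of wild-type pig embryos at day 23 of gestation and of wild-type mouse embryos at E11.5, all from natural matings. There are 2 labelled samples per species and mark, and each deposited list is a single consensus over its samples. For pig H3K4me1 the design text names 1 biological replicate with technical replicates, while the sample titles name biological replicates 1 and 2. The sources conflict, so it is not known how many litters the regions rest on. The lists hold positions without heights, so the absence of an H3K27ac peak says that none was called, not that the mark was absent.

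H3K4me1 is laid down at enhancers and along the flanks of promoters, and H3K27ac is added where these elements are active. Elements with H3K4me1 alone are called primed, since many of them gain H3K27ac at another stage or in another cell type. In a limb bud, where mesenchyme, muscle precursors, ectoderm, vessels and blood lie together, a mark held by few cells can fail to give a peak in the whole tissue. Fewer cells with a mark and less of the mark per cell therefore cannot be told apart here.

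The sequences below are the 300 bases around the strongest mouse match of 1 region each for 5 of the genes that the later sections return to, on the plus strand of Sscrofa11.1. They were picked because, among the regions of each gene, they gave the strongest match, and so show how pig and mouse positions were paired. Capitals mark TAATTA, the core bound by many homeodomain proteins, and TTTATNG, a core bound by posterior HOX proteins, on either strand. The GAS1 bases lie at chr10:28512173-28512472, the SPRY2 bases at chr11:51852110-51852409, the ID2 bases at chr3:127802852-127803151, the SOX9 bases at chr12:8884801-8885100, all intergenic, and the MEIS1 bases at chr3:75536393-75536692 in an intron of the gene.
GAS1: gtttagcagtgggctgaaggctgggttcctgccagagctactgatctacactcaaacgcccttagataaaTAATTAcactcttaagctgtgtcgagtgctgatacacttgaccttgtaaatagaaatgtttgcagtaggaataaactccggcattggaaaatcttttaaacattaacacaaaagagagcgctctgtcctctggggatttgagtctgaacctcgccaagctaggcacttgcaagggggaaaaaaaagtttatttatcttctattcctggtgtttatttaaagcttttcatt
SPRY2: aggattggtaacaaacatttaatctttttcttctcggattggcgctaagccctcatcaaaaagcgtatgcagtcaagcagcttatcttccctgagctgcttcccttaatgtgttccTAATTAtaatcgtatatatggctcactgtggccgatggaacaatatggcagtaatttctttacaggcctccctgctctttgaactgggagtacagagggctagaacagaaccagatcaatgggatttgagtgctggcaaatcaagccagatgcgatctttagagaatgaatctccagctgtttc
ID2: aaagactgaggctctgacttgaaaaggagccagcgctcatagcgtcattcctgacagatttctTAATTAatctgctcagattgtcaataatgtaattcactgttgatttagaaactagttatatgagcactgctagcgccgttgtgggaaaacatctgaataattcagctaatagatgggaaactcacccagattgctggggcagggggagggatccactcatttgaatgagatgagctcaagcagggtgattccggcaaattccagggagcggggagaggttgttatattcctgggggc
SOX9: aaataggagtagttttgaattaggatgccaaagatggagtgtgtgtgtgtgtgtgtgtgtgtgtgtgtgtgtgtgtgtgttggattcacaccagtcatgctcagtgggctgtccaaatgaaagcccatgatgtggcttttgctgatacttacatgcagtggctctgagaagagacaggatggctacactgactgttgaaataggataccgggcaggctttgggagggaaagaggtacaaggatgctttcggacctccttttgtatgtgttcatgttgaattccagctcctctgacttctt
MEIS1: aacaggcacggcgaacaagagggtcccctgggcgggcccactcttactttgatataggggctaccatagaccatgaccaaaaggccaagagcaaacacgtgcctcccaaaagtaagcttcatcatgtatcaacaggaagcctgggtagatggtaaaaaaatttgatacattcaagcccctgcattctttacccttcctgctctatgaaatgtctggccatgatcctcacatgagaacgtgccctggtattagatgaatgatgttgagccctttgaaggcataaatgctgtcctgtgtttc

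The GAS1 region lay 4.18 kb from the TSS of this hedgehog co-receptor, and its mouse match of 702 bp had 88.6% identity. The pig region carried H3K4me1 alone, while the mouse position carried H3K4me1, H3K27ac and H3K4me3 peaks. A HOXA13 region, not printed, lay 17.9 kb from the TSS of this digit gene, and its mouse match of 772 bp (78.4% identity) carried H3K27ac without H3K4me1. The SPRY2 match of 1024 bp (83.4% identity), the ID2 match of 365 bp (84.1% identity) and the SOX9 match of 2016 bp (71.5% identity) carried H3K4me1 without H3K27ac or H3K4me3 in mouse, as the pig regions did. The MEIS1 match of 3014 bp (80.5% identity) did so too. The mouse gene nearest to the SPRY2 match was Ndfip2, not Spry2, while the GAS1, ID2, SOX9 and MEIS1 matches were nearest to their own counterparts. These printed stretches were 40.7% to 47.3% G or C. A TAATTA stood in those of GAS1, SPRY2 and ID2, and TTTATNG in none. The SOX9 stretch holds a run of GT repeats, and its region lay 238 kb from the TSS.

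Over all pig H3K4me1 peaks, 16826 (16.3%) lay within 1 kb of a TSS and 86547 were distal. Of the distal peaks, 83.5% had H3K4me1 only. A further 10041, or 9.71% of all pig H3K4me1 peaks, overlapped H3K27ac and not H3K4me3, and these serve below as the regions with H3K27ac. Another 2435 overlapped H3K4me3 alone and 1833 overlapped both marks. In mouse, 44352 of 69958 H3K4me1 peaks on sequences matched to the annotation met the same rule, which was 63.4% of all and 84.1% of the distal ones. The pig lists held more peaks than the mouse ones for H3K4me1 and H3K27ac, with 103373 and 27566 in pig against 69962 and 20875 in mouse.

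The tissue label was checked at promoters. H3K4me3 and H3K27ac both lay within 1 kb of a TSS of 5 of 6 limb mesenchyme genes (TBX5, PRRX2, TWIST1, MSX1 and HAND2), and neither lay there at PRRX1. The hindlimb genes PITX1 and TBX4 had H3K4me3 at 2 of 2 and H3K27ac at 0 of 2. Over all coding genes, 64.8% had H3K4me3 and 46.6% had H3K27ac at a TSS. Among markers of other cells, H3K27ac lay at 1 of 6 muscle precursor genes, 0 of 5 endothelial genes, 0 of 4 annotated blood genes, 1 of 4 annotated ectoderm genes and 0 of 5 neural crest genes. H3K4me3 lay at 5, 2, 0, 2 and 2 of the genes in these sets. In the longer lists described below, H3K27ac lay at 4 of 10 muscle precursor and 2 of 11 endothelial genes.

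The limits of the rule divided a continuous range. The members nearest the TSS limit lay 1001 to 1002 bp from a TSS, and the peaks nearest to it on the other side lay 999 to 1000 bp away. In all, 2086 members lay 1 to 2 kb from a TSS. A further 2240 peaks free of both other marks lay within 1 kb without touching a TSS, and 3034 held a TSS. For H3K27ac, the closest member left a gap of 4 bp and the smallest overlap that removed a peak was 1 bp. Only 68 members had an H3K27ac peak less than 200 bp away, and 277 distal peaks were removed by an overlap shorter than that, against a median overlap of 968 bp.

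The regions were broad. Their median width was 2850 bp (95% interval of the median 2836 to 2866), with quartiles at 1662 and 4018 bp and a range of 200 to 14493 bp. Regions with H3K27ac were wider, with a median of 3523 bp (3489 to 3556). The classes are split by overlap, and a wider peak is likelier to overlap another peak. Width is therefore not independent of the rule, and how much of the gap this makes was not computed. Together the H3K4me1-only regions covered 212 Mb, or 8.47% of the pig genome, against 36.2 Mb for regions with H3K27ac. The 5 widest lay near LOC106506827, PSAPL1, CRMP1, BCOR and PKN2, and measured 12489 to 14493 bp. The one near CRMP1, which encodes a collapsin response mediator in growing axons, lay in an intron of LOC102164323.

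More of the regions lay in introns than between genes. By midpoint, 54.9% were intronic (54.5 to 55.3), 41.3% intergenic (41.0 to 41.7) and 3.78% exonic (3.65 to 3.92). Of all genome bases over 1 kb from a TSS, 50.5% were intronic, 46.0% intergenic and 3.49% exonic. Regions with H3K27ac were more often intronic and less often intergenic, at 57.7% (56.7 to 58.6) and 37.9% (37.0 to 38.9), and these intervals do not overlap those of the H3K4me1-only regions. The mouse H3K4me1-only regions were 51.7% intronic and 44.2% intergenic, against 40.9% and 55.4% of mouse bases, so the share above the genome's was larger in mouse. Among intronic pig regions for which the intron's order could be read, 23.1% of 29759 lay in a first intron, against 22.1% of 4460 with H3K27ac and 20.8% of intron bases. All intervals cover counting error only, and regions of 1 list are not replicates of one another.

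**Figure D1:**
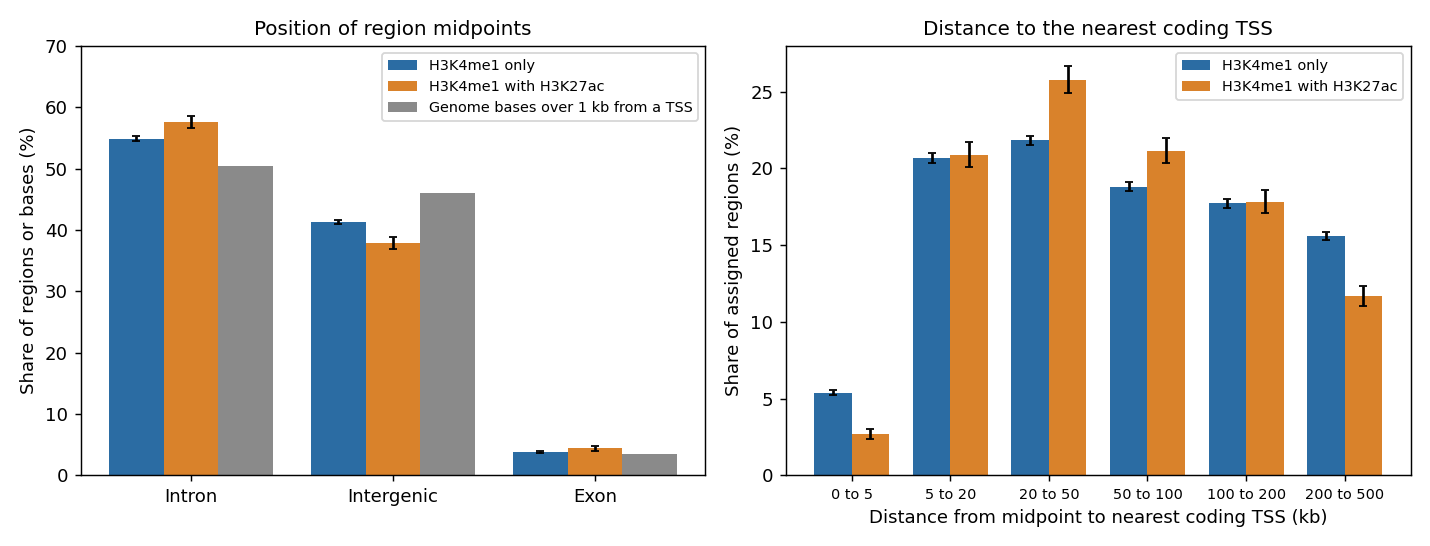
Left, share of region midpoints in introns, intergenic sequence and exons (percent) for H3K4me1-only regions, regions with H3K27ac and genome bases over 1 kb from a TSS. Right, share of assigned regions by distance to the nearest coding TSS (kb). Error bars are 95% Wilson intervals. H3K4me1-only regions were 54.9% intronic, against 57.7% of regions with H3K27ac.

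Most regions had a coding gene in reach. The TSS of a protein-coding gene lay within 500 kb of 69441 midpoints (96.1%), and these regions were assigned to that gene. The other 2797 lay farther away or on scaffolds without a coding gene. The median distance was 54.3 kb (53.5 to 55.0), against 51.0 kb (49.1 to 52.9) for regions with H3K27ac. The extremes held more of the H3K4me1-only regions. Within 5 kb lay 5.37% of them against 2.69% of regions with H3K27ac, and from 200 to 500 kb lay 15.6% against 11.7%. Between 20 and 50 kb the order turned, with 21.8% of H3K4me1-only regions against 25.8% of regions with H3K27ac.

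The genes nearest to the regions often had H3K27ac at their own promoters, a mark that the rule did not use there. A peak of H3K27ac lay within 1 kb of a TSS of the nearest coding gene for 59.2% of assigned regions (58.8 to 59.5). This was 66.9% (66.0 to 67.8) for regions with H3K27ac. Of all 20661 coding genes, each counted once, 46.6% carried the mark. A share of regions counts a gene once per region, so it is not a like measure to the share of genes. The same holds for H3K4me3. H3K4me3 at the nearest gene was less different, at 79.5% against 81.3% of regions with H3K27ac and 64.8% of all coding genes. Nearest genes with H3K4me3 and no H3K27ac made up 22.3% for H3K4me1-only regions and 17.1% for regions with H3K27ac. Neither mark lay at the nearest gene for 18.5% against 15.9%. The gap between the classes held at each distance. Up to 20 kb it was 56.1% of H3K4me1-only regions against 64.8% of regions with H3K27ac, from 20 to 100 kb 58.7% against 67.6%, and from 100 to 500 kb 62.1% against 67.5%.

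The regions lay close together along the chromosomes. Joined across gaps of up to 12500 bp, 55.6% of the regions (55.3 to 56.0) fell into 8600 stretches of 3 or more. This share was 23.9% when regions were joined at 5 kb and 23.8% with only the wider 50% of H3K4me1 peaks. Of these stretches 398 held 10 or more regions, while 7367 pairs and 17325 single regions made up the rest. Regions with H3K27ac were fewer and stood farther from each other, with 10.4% in such stretches and a median gap of 27.6 kb between neighbours. Measured to the same target the classes were closer. The nearest H3K4me1-only region was a median of 4.71 kb (4.66 to 4.76) from another of its kind, against 5.04 kb (4.93 to 5.15) from a region with H3K27ac, and 51.9% against 49.6% had one within 5 kb. Of the H3K4me1-only regions, 17.6% had a region with H3K27ac within 12500 bp, while 77.6% of the regions with H3K27ac had an H3K4me1-only one at that distance. The nearest H3K27ac peak of any kind was a median of 26.8 kb from a member, within 1 kb for 2.08% and within 100 kb for 82.5%. The mouse H3K4me1-only regions, fewer by number, had a median gap of 9.24 kb and 33.0% in stretches of 3 or more.

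The longest stretch was chr10:67065943-67310764, with 27 regions over 245 kb around PFKP, a phosphofructokinase of glycolysis, and it held 1 H3K27ac peak. The stretch with the most regions, 28 over 231 kb at chr3:74255497-74486800, held no coding TSS and no H3K27ac peak, and the nearest coding TSS was that of C1D, a cofactor of the nuclear exosome, 226 kb from its midpoint. Another long one, chr12:8791134-9016466, held 27 regions over 225 kb and no H3K27ac peak in the intergenic sequence beside SOX9, the master regulator of cartilage formation. Regions filled 35.9% of its bases, and the SOX9 bases printed above lie in it. Further long stretches lay nearest to KCNMA1, TBX5, SOX1, BMP7, SHISA2, WNT11 and C5H12orf75. The one beyond TBX5, the forelimb selector, ran over 194 kb at chr14:37829516-38023904 with 22 regions and 2 H3K27ac peaks. The one beside SOX1, a gene of neural progenitors, ran over 183 kb with 23 regions and no H3K27ac peak. Those at BMP7 and WNT11, ligands of limb signalling, held 24 and 18 regions with 1 and 2 H3K27ac peaks. The stretch at chr10:56924963-57094616 held 24 regions and lay partly in PARD3, a cell polarity gene, with the nearest coding TSS, that of NRP1, 579 kb away.

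Regions were spread unevenly over genes. Of 20661 coding genes, 11399 (55.2%) had at least 1 region assigned, 2049 (9.92%) had 10 or more, 778 (3.77%) had 20 or more and 64 had 50 or more, and the median was 1. The 1000 genes with the most held 40.6% of the assigned regions. Genes also differ in room. The territory of a gene, the bases nearer to its coding TSSs than to any other within 500 kb, had a median of 48.6 kb, and over all territories there were 3.07 regions per 100 kb. TENM3, a teneurin adhesion receptor, had the most, with 100 regions of which 98 lay inside the gene, in a territory of 2768 kb. RORA, a nuclear receptor, had 84, the splicing factor RBFOX1 81, ZNF608 79, AUTS2 77 and the adhesion molecule CADM1 76.

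The repair gene MGMT had 73 regions, SOX11, a SOX factor of progenitor cells, 73, MCTP2 71 and SOX9 71. MECOM, MEIS1 and the adhesion molecule NTM had 68 each, TCF4 had 66 and CAMTA1 65. SOX9 had none of its regions inside the gene and a density of 10.1 per 100 kb, whereas RBFOX1 had 77 of its own inside and 3.34 per 100 kb. The number inside depends on gene length, as SOX9 is short (chr12:8642154-8647315) and RBFOX1 long (chr3:34938703-37209772). Beside its 73, SOX11 had 25 regions with H3K27ac, while the other 14 of these 15 genes had 2 to 12. All of the 15 had H3K4me3 at a TSS and 11 had H3K27ac. Over the 778 genes with 20 or more regions, 66.2% had H3K27ac and 83.8% H3K4me3 at a TSS, against 46.6% and 64.8% of all coding genes. By density, the genes with 20 or more regions were led by CLMP (12.3 per 100 kb), GLIS1 (12.2), SHISA2 (11.7), TSPAN18 (11.7) and BMP7 (11.3), with SOX1 between the last pair.

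Genes of limb signalling had more regions than the median coding gene, in larger territories and at a higher density. The lists of genes below were chosen with earlier results of these data known. In hedgehog signalling, 11 of 14 genes had a region, against 55.2% of all coding genes, with a median of 8 per gene against 1. GAS1 had 38, GLI3 37 and GLI2 29, the last pair being transcription factors that carry the signal. SHH, the ligand made at the posterior margin of the limb bud, had 26. The effector GLI1, the receptor component SMO and the regulator KIF7 had 0 each. Regions with H3K27ac made up 22.3% of the regions of both classes at these genes, against 12.4% over all genes. Beside its 38 H3K4me1-only regions GAS1 had 14 with H3K27ac.

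Among limb mesenchyme factors 27 of 28 genes had a region, 18 had 10 or more against 9.92% of all coding genes, and the median was 16.5. MEIS1, which marks the proximal limb, had 68, OSR1 60, SALL1 53 and TBX3 40. Beside its 60, OSR1, a factor of connective tissue and joints, had 14 regions with H3K27ac, and SALL1 had 1 beside its 53. TBX18 had 38 regions and none with H3K27ac. TBX5 had 16, PRRX1 13, HAND2 3 and TBX2 0. Per 100 kb the list had 6.83 regions.

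In FGF signalling 13 of 14 genes had a region and the median was 15. The feedback inhibitors SPRY2 and SPRY1 had 59 and 49, FGF9 36 and the receptor FGFR2 33, while the ridge ligands FGF8 and FGF4 had 5 and 3 and the mesenchymal ligand FGF10 had 15. All 14 BMP genes had a region, with a median of 17.5. ID2, a target of the pathway, had 49, the receptor BMPR1B 39, and the ligands BMP4 and BMP7 32 each. All 14 WNT genes had a region, and the middle pair, FZD7 and RSPO2, had 14 and 11. The list was led by the ligand WNT5A with 50, the feedback inhibitor AXIN2 with 37, the receptor FZD1 with 29 and the effector LEF1 with 19. These pathways had 5.74 to 6.80 regions per 100 kb, against 3.07 over all territories.

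In the chondrogenic and joint list 11 of 12 genes had a region. By number the SOX factors led, since SOX9 had 71, SOX5 54 and SOX6 39, with 19 at the matrilin gene MATN1, 4 at ACAN, the aggrecan gene, and 3 at COL2A1, the type II collagen gene. Per 100 kb of territory SOX9 had 10.1, SOX6 5.30, SOX5 3.95 and MATN1 3.66, so SOX5 and MATN1 were close by density. GDF5, a ligand of the joint, had 0. All 10 annotated genes of the proximal and retinoid list had a region, with 45 at the retinoid receptor RARB, 12 at PBX3 and 11 at ZBTB16. Osteoblast genes had a median of 1, with 9 at ALPL, 3 at SPP1 and 2 at DMP1. Tendon genes had a median of 6, with 31 at TNC, 14 at DCN, 11 at MKX and 6 at COL3A1.

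Other cell types of the limb had regions as well. Muscle precursor genes had a median of 3.5, with 16 at PAX7, 15 at PAX3, 10 at MET and 5 at MYOD1, and 3.33% of the regions of both classes at these genes carried H3K27ac. Muscle contraction genes had a median of 0, with 5 at RYR1, 3 at TTN and 2 at DES. Endothelial genes had a median of 5, with 34 at CDH5, 18 at ERG, 14 at EMCN and 10 at KDR, and 21.5% of their regions carried H3K27ac, 16 of them at CDH5. Blood genes had a median of 1.5, with 22 at RUNX1, 12 at PTPRC, 6 at LMO2 and 5 at CSF1R. Limb ectoderm genes had a median of 9, with 24 at TFAP2A, 22 at EN1, 17 at TP63 and 10 at WNT7A. Neural crest genes had a median of 3, led by NGFR with 7 and by EDNRB, FOXD3 and S100B with 4 each.

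Genes of organs outside the limb had medians of 1 to 4 and densities of 1.95 to 2.67 per 100 kb, under the 3.07 of all territories. Some lists of limb cells were as low, with 2.14 for osteoblast, 2.10 for muscle contraction and 2.21 for neural crest genes. Neuronal genes had a median of 2, with 17 at RBFOX3, 13 at SYT1, 6 at SLC17A6 and 4 at STMN2. Liver genes had a median of 1, with 10 at CPS1 and 7 at APOA1, and heart genes a median of 4, with 7 at RYR2, 6 at TNNT2, 5 at HCN4 and 4 at NKX2-5. The housekeeping genes had a median of 1, with 9 at YWHAZ and 1 each at ACTB, B2M and EEF1A1. Axon guidance genes were the opposite case. All 23 had a region and the median was 32, with 61 at the ephrin ligand EFNA5, 54 at ROBO1, 51 at SEMA3A and 49 at PLXNA2. Their territories had a median of 717 kb, their density was 4.13 per 100 kb, and 6.99% of their regions carried H3K27ac, against 12.4% over all genes.

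**Figure D2:**
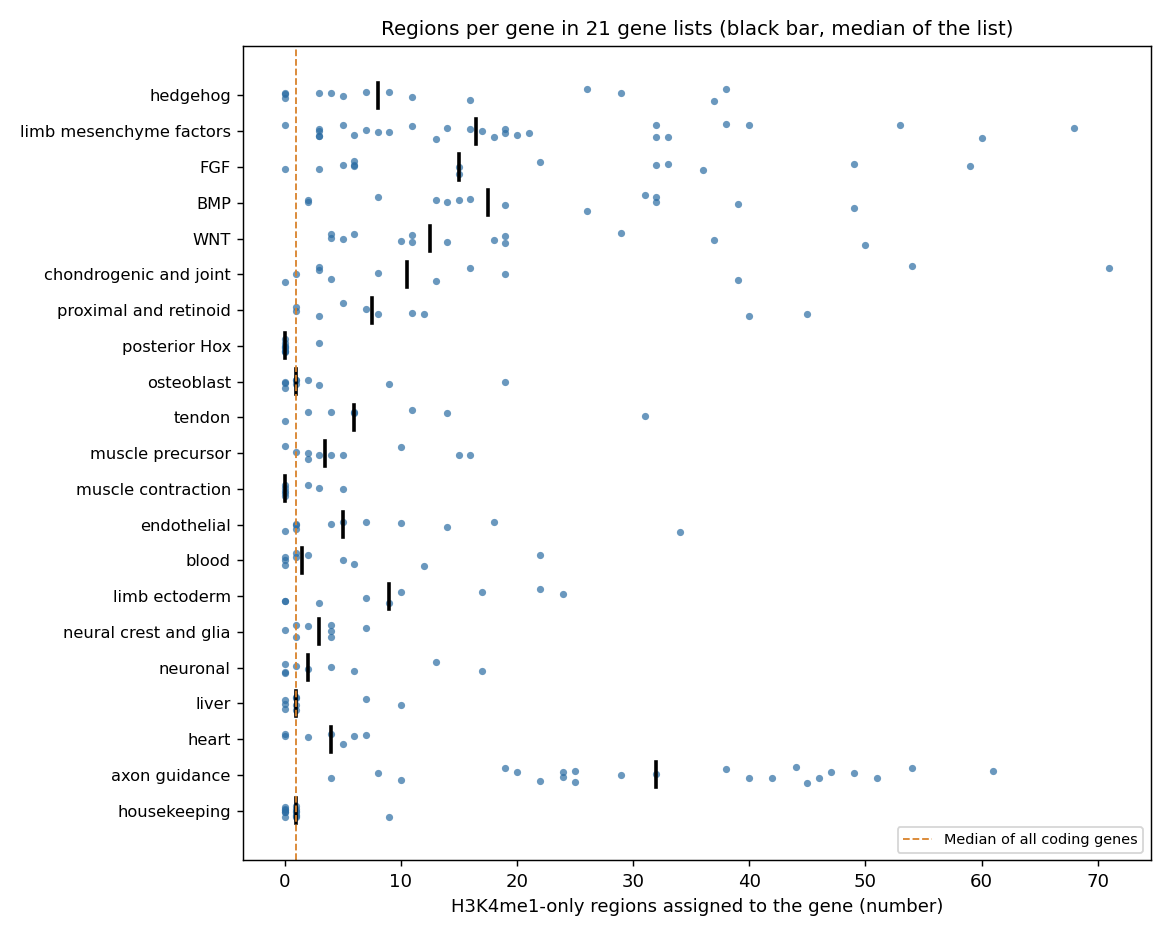
Number of H3K4me1-only regions assigned to each gene (x axis), by gene list (y axis). Each point is a gene, the black bar is the median of the list and the dashed line is the median over all coding genes, which is 1. The axon guidance list has the highest median, 32, and posterior Hox and muscle contraction the lowest, 0.

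The posterior Hox genes, which pattern the forearm and digits, had almost no region by nearest TSS. Of 9 genes only HOXA13 had any, with 3, and HOXD13 had 0. The genes of a cluster stand side by side, and the median territory of this list was 8.24 kb. Around the clusters the count was high. Within 500 kb of the HOXD13 TSS lay 66 H3K4me1-only regions and 1 region with H3K27ac, against medians of 29 and 4 over 19560 coding genes on assembled chromosomes, and 96.7% of those genes had fewer of the H3K4me1-only regions. Of the 66, 30 were nearest to MTX2 and 23 to LNPK, the genes that flank the cluster on its opposite sides. In mouse, the digit and forearm enhancers of the HoxD cluster are known to lie in the gene deserts on either side of it. Within 500 kb of HOXA13 lay 56 H3K4me1-only regions and 2 regions with H3K27ac. Of the 19560 genes, 91.4% had fewer H3K4me1-only regions than HOXA13. Of the 56, 14 were nearest to EVX1, 11 each to HIBADH and C18H7orf71, and 10 to SKAP2. MTX2, LNPK, EVX1, HIBADH, C18H7orf71 and SKAP2 were named after their values were seen.

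Some genes, limb genes among them, had many regions and no distal H3K27ac peak free of H3K4me3. Of the 778 genes with 20 or more regions, 67 had none of these in their territory, with or without H3K4me1. Distal peaks that carried both H3K27ac and H3K4me3 were not counted. The share of all coding genes without such a peak was not computed, so the 67 are not shown to be more than usual. Of the 67, 38 had H3K27ac at a TSS, a smaller share than the 66.2% of the 778 genes, beside 46.6% of all coding genes. SPRY2 led with 59 regions, 28 upstream of its TSS as far as 442 kb and 31 downstream as far as 331 kb. Within a window of 500 kb on each side, which holds neighbouring territories too, SPRY2 had 69 H3K4me1-only regions and 3 with H3K27ac. The axon guidance receptor ROBO2 had 47, all inside the gene. TBX18, a limb and body wall factor, had 38, SOX1 and GBX2, genes of the neural tube, 27 each, EYA1 and PROX1 24 each, FOXF1 and LNPK 23 each and MSX1 21. MSX1, a homeodomain factor of distal limb mesenchyme, had H3K27ac and H3K4me3 at its TSS and 17 of its regions upstream, as far as 124 kb. These genes were named after their values were seen, and the absence of H3K27ac is a statement about called peaks.

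At SOX9 the regions lay over the whole window. Of its 71, 53 were upstream of the TSS, as far as 498 kb, and 18 downstream, as far as 197 kb. Within 500 kb lay 99 H3K4me1-only regions in all, beside 8 with H3K27ac, and 99.99% of the 19560 coding genes had fewer than 99. SHH had 21 of its 26 regions upstream, as far as 284 kb, and 5 downstream, and its single region with H3K27ac lay 61.4 kb downstream. H3K4me3 lay at the SHH TSS and H3K27ac did not. Within 500 kb of SHH lay 69 H3K4me1-only regions and 3 with H3K27ac.

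**Figure D3:**
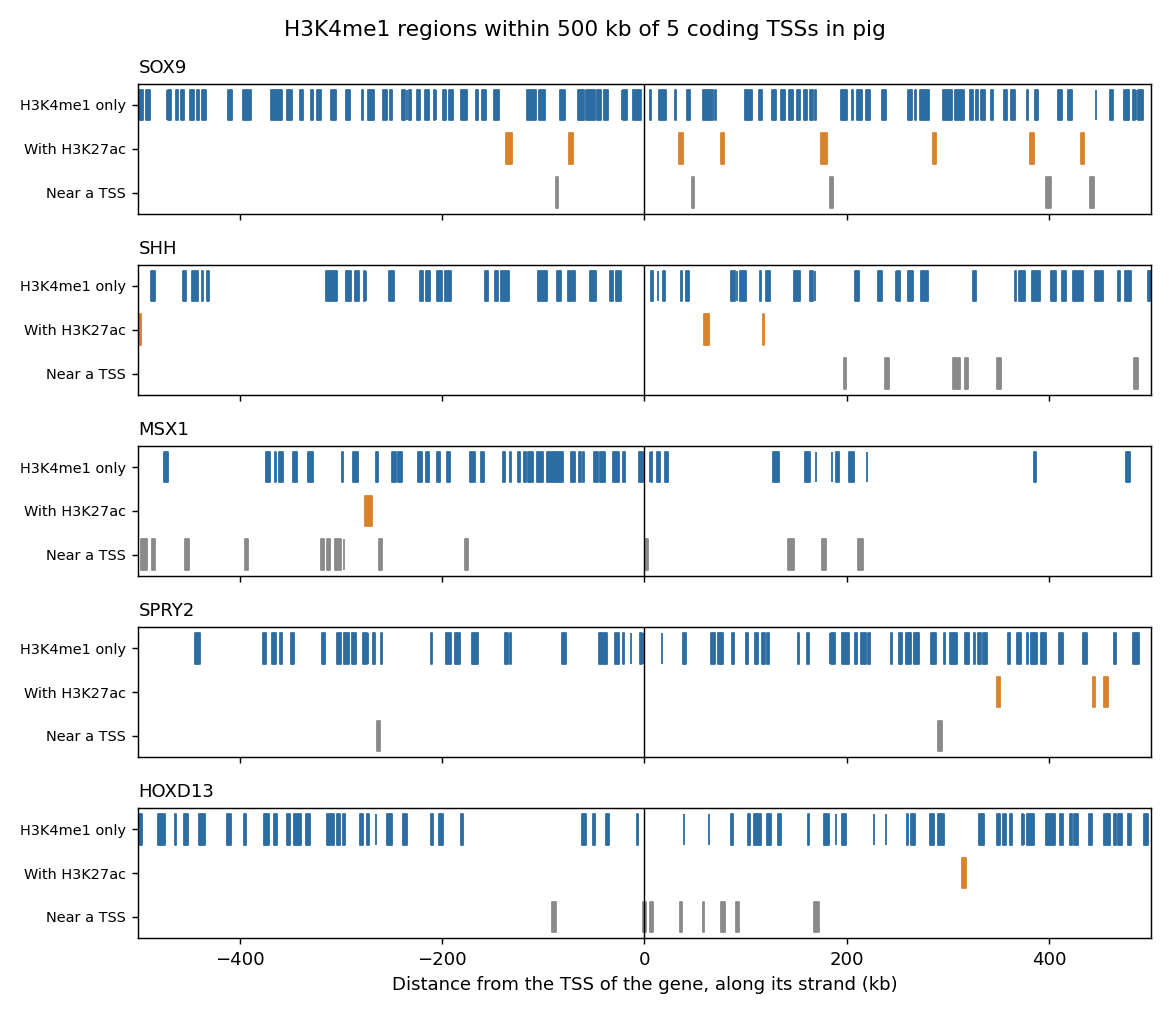
H3K4me1 regions within 500 kb of 5 pig coding TSSs, by distance from the TSS along the strand of the gene (kb). Rows show H3K4me1-only regions, regions with H3K27ac and peaks within 1 kb of a TSS, and distal peaks with H3K4me3 are not drawn. SOX9 has 99 H3K4me1-only regions and 8 with H3K27ac in the window, and HOXD13 has 66 and 1.

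The X chromosome had few of the regions. It held 945, or 7.50 per Mb, against 31.2 per Mb on the 18 autosomes, which ranged from 23.8 on chromosome 8 to 43.6 on chromosome 12. Regions with H3K27ac were fewer there too, at 0.603 per Mb against 4.36 on autosomes, and H3K27ac peaks of all kinds stood at 3.90 against 11.8 per Mb. H3K4me3 peaks differed less, at 5.26 against 7.78 per Mb. The density of coding genes on X was 6.05 per Mb, within the range of the autosomes, where chromosome 8 had 4.94. The mouse X held 2.71 H3K4me1-only regions per Mb, against 17.9 on mouse autosomes. Under the other rules for membership that were tried, pig X stood at 3.45 to 7.96 per Mb and the autosomes at 14.3 to 31.9. Chromosome Y held 50 regions, and 542 lay on unplaced scaffolds.

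**Figure D4:**
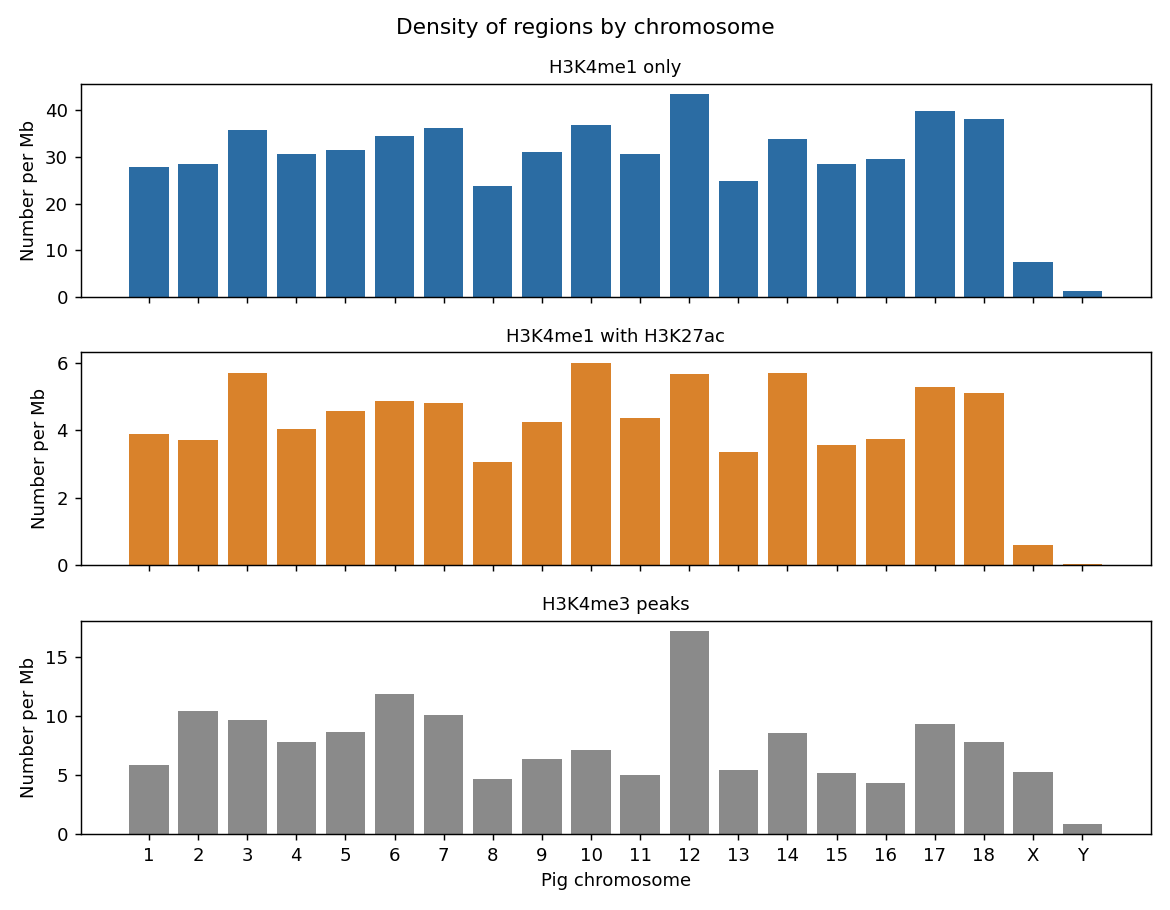
Density by pig chromosome (number per Mb) of H3K4me1-only regions, regions with H3K27ac and H3K4me3 peaks. Each bar is a chromosome. H3K4me1-only regions stand at 7.50 per Mb on X and at 23.8 or more on every autosome, while H3K4me3 peaks on X, at 5.26 per Mb, lie within the range of the autosomes.

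The sequence of the regions was set beside that of regions with H3K27ac. The central 300 bases were 47.6% ± 8.64 G or C (SD over 72238 regions), against 49.9% ± 8.06 (SD over 10041) with H3K27ac and 41.9% over the genome, so the spread among regions was far wider than the gap between classes. Repeats masked in the assembly covered 19.2% of these bases against 19.6%, and 36.2% of the genome. A window held 5.07 CpG dinucleotides on average against 5.61. Short motifs were then counted on both strands, from a list chosen after other values had been seen. TAATTA stood in 8.12% of H3K4me1-only windows (7.92 to 8.32) against 6.47% (6.01 to 6.97) with H3K27ac, and TTTATNG in 15.1% against 13.2%. Among windows of 40 to 50% G or C these shares were 8.57% against 8.43% and 16.9% against 16.7%. The E-box CAGCTG stood in 19.8% against 22.9%, and in 18.3% against 19.6% within that range of G or C. The GATA core AGATAA stood in 15.3% against 12.6%, and in 17.3% against 15.9% within it. A match to so few letters is no evidence of binding.

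Part of the regions had a recognisable counterpart in the mouse genome. A seeded sample of 3000 regions of at least 1 kb was searched with the central 1000 bases against the mouse genome. A match was found for 794, or 26.5% (24.9 to 28.1), against 760 of 3000 regions with H3K27ac, or 25.3% (23.8 to 26.9), and these intervals overlap. The share depended on the length searched, and with the central 300 bases it was 11.2% (10.2 to 12.4) against 9.30% (8.31 to 10.4). With 1000 bases the median match was 361 bp against 326 bp. The mark at the mouse position was then read. It carried mouse H3K27ac for 29 of the 794, or 3.65% (2.55 to 5.20), against 104 of the 760, or 13.7% (11.4 to 16.3). Mouse H3K4me1 without the other marks lay there for 32.1% (29.0 to 35.4) against 38.6% (35.2 to 42.1). These intervals overlap, and in a second seeded sample the shares were 34.1% (30.8 to 37.4) against 36.7% (33.4 to 40.1). No mouse peak of any of the marks lay there for 62.6% (59.2 to 65.9) against 46.4% (42.9 to 50.0). The mouse gene nearest to the match was the counterpart of the pig region's nearest gene for 84.5% of 701 matches whose gene had one, against 83.6% of 665. Among matches with that same gene, 3.21% carried mouse H3K27ac against 13.8%.

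**Figure D5:**
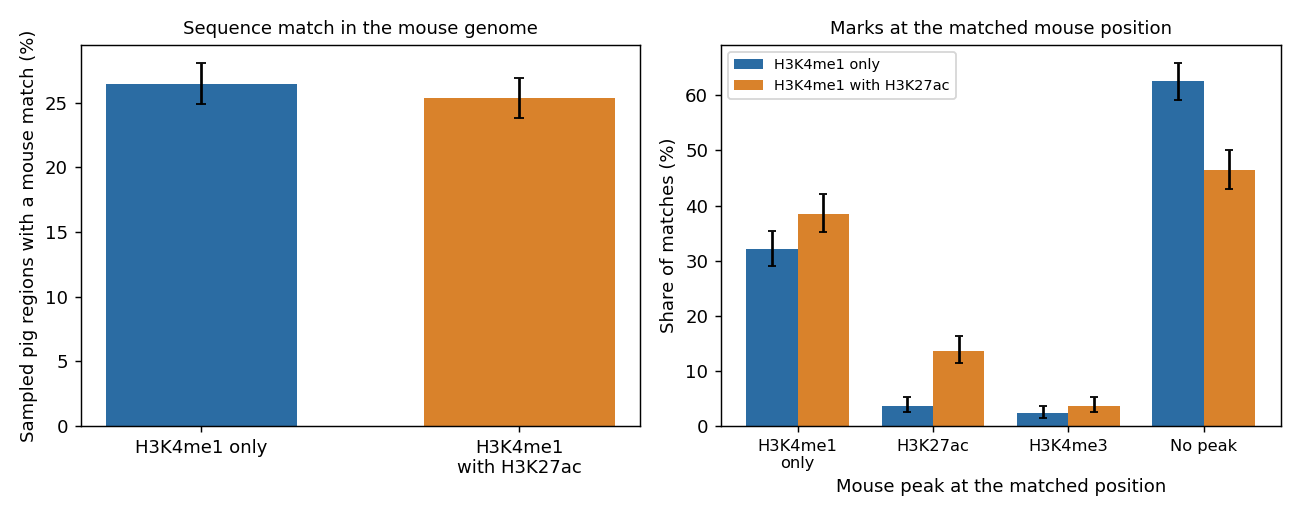
Left, share of 3000 sampled pig regions of each class with a sequence match in the mouse genome (percent). Right, share of the matches by the mouse peak at the matched position (percent). Error bars are 95% Wilson intervals. Matches of H3K4me1-only regions lay on mouse H3K27ac in 3.65% of cases, against 13.7% for regions with H3K27ac.

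For the regions of single limb genes the search used whole regions. At MEIS1, 45 of 68 had a match, all of them nearest to mouse Meis1, of which 20 lay on mouse H3K4me1 and 1 on mouse H3K27ac. At SOX9, 49 of 71 had a match, 20 on mouse H3K4me1 and 2 on H3K27ac. At WNT5A, 41 of 50 had one, with 19 on mouse H3K4me1, and at RARB 17 of 45, with 7. At GAS1, 16 of 38 had a match, and 12 lay on mouse H3K4me1 and 5 on mouse H3K27ac. At SPRY2, 28 of 59 had one and 12 of these were nearest to mouse Spry2. None of the SPRY2 matches lay on mouse H3K27ac, and 15 lay on mouse H3K4me1.

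By nearest gene the pig and mouse lists could be read side by side for 14978 genes with 1 symbol in both annotations. Over all of these genes there were 60680 pig and 37848 mouse regions. The 695 such genes with 20 or more pig regions had a median of 28 in pig and 15 in mouse. They were picked by the pig count alone, which by itself lowers the mouse median beside the pig one. Of the 695, 78.6% had 10 or more in mouse, against 7.08% of all 14978 genes. These shares were not matched for territory, which was large in both species at genes such as SOX9 (702 kb in pig and 892 kb in mouse). At the other end, 41 of the 695 (5.90%) had 2 or fewer mouse regions. The share of all 14978 genes with so few was not computed, so 5.90% has no base rate beside it. The sole gene of the lists among them was SHH, with 26 regions in pig and 1 in mouse. Its territory was 353 kb in pig and 439 kb in mouse. MSX1 had 21 regions in pig and 3 in mouse, with territories of 214 and 151 kb. For SPRY2 these were 59 regions in pig and 14 in mouse, and the territory was 832 kb in pig against 424 kb in mouse. GREM1, a BMP inhibitor of the limb bud, had 16 in pig and 0 in mouse, with a territory of 319 kb in pig against 72.0 kb in mouse. HAND2 went the other way, with 3 in pig and 16 in mouse, and its territory was 80.9 kb in pig against 452 kb in mouse. Genes that differ in annotated neighbours differ in territory, so these counts compare territories as much as regions. The pig H3K4me1 list is also the longer one, and depth and the number of animals behind the lists cannot be told apart from species.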

How the data were processed

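Peak positions were measured by ChIPmentation, and each of the 6 deposited lists gives chromosome, start and end of broad consensus peaks with no further value. Per the labels' design text, reads were cropped to 50 bp, aligned to susScr11 or mm10, and broad peaks were kept at an irreproducible discovery rate below 0.01. The submitters' processing notes name Bowtie2 2.3.5, Trimmomatic 0.39, SAMtools 1.9, deepTools 3.5 and FastQC 0.11.9. No source used here names the program that called the peaks. Depth per sample is unknown.

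Peaks were placed on NCBI RefSeq annotations of Sscrofa11.1 and GRCm38.p6 with Python 3.11.15, numpy 2.4.6, pandas 2.3.3 and scipy 1.17.1. A region's class was read at its midpoint (exon before intron), and regions were assigned to the nearest coding TSS within 500 kb. A mark lay at a gene when a peak fell within 1 kb of any of its TSSs. Mouse matches came from blastn 2.17.0 on repeat-masked sequence at an E value up to 1e-10. With 1 list per group there is no spread between samples, so no test was run, and 95% Wilson or order-statistic intervals cover counting error only. The steps were checked on simulated intervals. Alternatives varied the TSS distance, overlap, gap to other marks, peak width, scaffolds, class, joining gap, assignment distance, promoter window and search.

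The regions and gene lists were chosen with earlier results of these data known. Named genes are the 15 with the most regions, those of the 10 longest stretches and the 5 with the most regions, the 5 widest regions and the 4 leading members of each list, of which some are not reported here. Others were named after their values were seen. Sequences were read from the genome of the build, for 5 of 8 genes that lead the limb lists.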

Additional observations from a re-analysis of the deposited data

How the results depend on the processing

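No paired analysis was possible because each group is 1 consensus list with no value per sample, and for the same reason no replicate could be left out. Of 49 values under alternatives, 34 stayed within counting error (counts within 1.5 times) and 15 moved. With only the wider 50% of H3K4me1 peaks, the number of regions was 33135, the median width 4124 bp, the share in stretches of 3 or more 23.8%, the share with H3K27ac at the nearest gene 57.8% and G or C 48.0%. With regions over 2.5 kb from every TSS, 41.7% were intergenic and 54.5% in stretches. With sharing set at 50% of the shorter peak, 56.5% were in stretches, and with a gap of at least 1 kb to other marks 54.7%, with 58.8% having H3K27ac at the nearest gene. Counting any overlap with a gene body gave 59.8% in genes and 40.2% outside. Joining at 5 kb put 23.9% in stretches, so the clustered share depends on the joining gap. A promoter window of 2.5 kb gave 61.1% with H3K27ac at the nearest gene. Searching the central 300 bases gave a mouse match for 11.2%. The intronic share exceeded the intergenic one under each alternative that recomputed both.

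Peaks have no score, so the stricter list was made by width alone. Depth is unknown, and a region without a called H3K27ac peak is not shown to lack the mark. By the design text, the pig H3K4me1 list rests on 1 biological replicate, while the titles of its 2 samples name biological replicates 1 and 2.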
